A study of Mus musculus with 8 samples.

Results

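Gene expression in a mouse embryonic stem cell line mutated at Gtf2i was compared with that in a line mutated at Hprt. The comparison used 4 of the 8 arrays of the study, chosen by title: 2 of the exon 2 mutant and 2 of the Hprt knockout. The exon 2 mutant was derived by gene targeting from the R1 stem cell line and carried the genotype Δexon2/+, so exon 2 was missing from an allele of Gtf2i and the other allele was intact. The Hprt knockout had the genotype HPRT -/- and no mutation of Gtf2i in its label, and its parental line was not named. For orientation, levels are also given for the other groups, 2 arrays each: wild-type cells of an unnamed line, and a gene-trap line (trap) derived from AB2.2 cells with the genotype HPRT -/-:GTF2I +/-. All cells were grown in serum replacement with leukaemia inhibitory factor (LIF) on feeder cells, which are usually embryonic fibroblasts. Each group was labelled as a single line, the arrays of the mutant were registered separately, and no label gave a batch. Parental line, batch, feeder content and both mutations therefore cannot be told apart in this comparison.

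Gtf2i encodes TFII-I, a transcription factor that also acts in the cytoplasm in signalling, and Hprt encodes the enzyme that salvages hypoxanthine and guanine for purine synthesis. Embryonic stem cells hold a network of transcription factors around Pou5f1, Sox2 and Nanog that keeps them able to form all tissues of the embryo. Feeder fibroblasts are mesenchymal cells that secrete collagens, proteoglycans, growth factors and chemokines, and their RNA is extracted together with that of the stem cells growing on them. The genes were therefore divided into fibroblast-type genes and stem cell genes, with lineage, metabolic and stress genes and markers of other cells described apart.

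Values were log2 normalized intensities of 1 probe set for each of 18193 genes. Testing required a value over the 40th percentile of an array, here called the filter level and log2 5.35 on average, on 2 or more arrays, and 13819 genes met it. The 2 arrays of a line were enough for this, so a gene may have been tested only through the line where it was high. Over the tested genes the arrays of a line correlated at 0.997 in both lines, whereas mutant and Hprt knockout arrays correlated at 0.918 to 0.920. The difference between mutant and Hprt knockout arrays had an SD of log2 0.827 to 0.839, against 0.169 between the mutant arrays and 0.160 between the Hprt knockout arrays. Arrays of a line are labelled as biological replicates, without stating that the cultures were separate. P-values here thus cover only the spread between these arrays, which may be technical, and the number of arrays limits the precision.

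Of the 13819 tested genes, 8455 passed at an adjusted p under 0.05 by limma (61.2%), 3442 of them higher (24.9%) and 5013 lower (36.3%) in the mutant. With so large a share of all genes past the threshold, the size of a difference says more here than the fact of a call. Counts of calls within gene lists are to be read beside these shares. Genes that differed at least 2-fold were mostly higher in the mutant, 1107 against 430 lower (8.01% and 3.11% of the genes tested). At 8-fold or more, a log2 difference of 3, 200 genes were higher and 9 lower, and all 32 genes with a log2 difference of 5 or more were higher in the mutant. The median difference over all genes was log2 -0.09, with quartiles at -0.34 and 0.20. Under cyclic loess normalization this median moved by 0.13 to 0.04 and the calls split into 4579 higher and 3492 lower, so medians of gene lists are given relative to all genes.

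**Figure D1:**
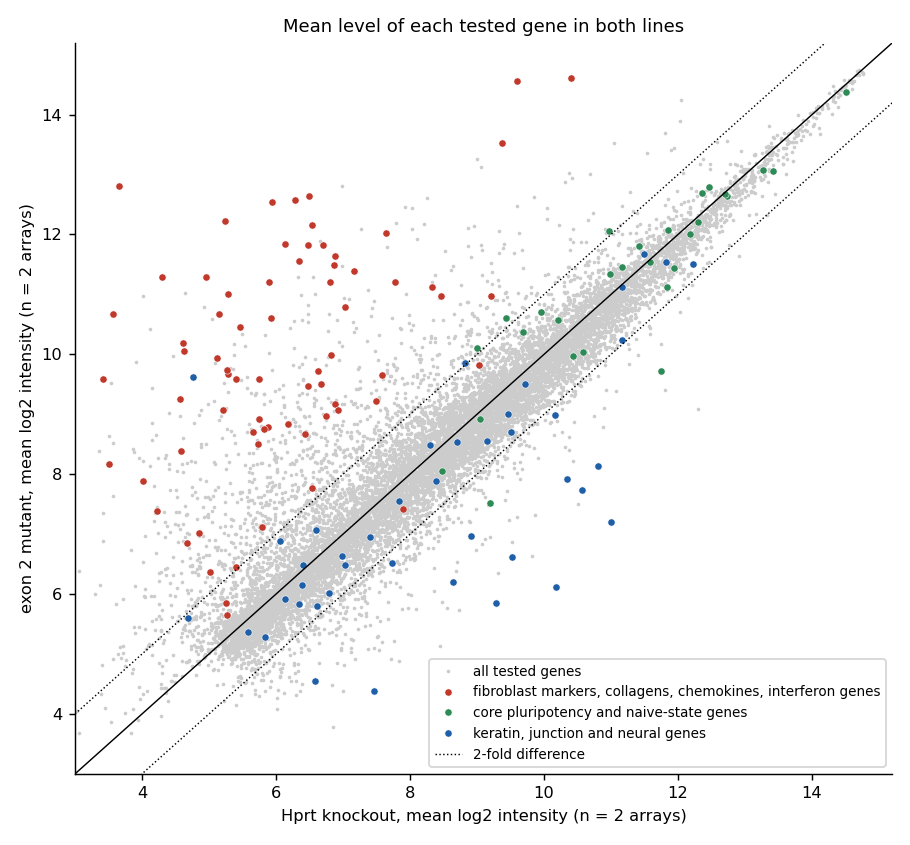
Mean log2 intensity of each tested gene in the Hprt knockout (horizontal axis) and in the exon 2 mutant (vertical axis), n = 2 arrays each, with the line of equal levels and dotted lines at a 2-fold difference. Fibroblast, collagen, chemokine and interferon genes (red) lie above the upper dotted line with few exceptions, pluripotency and naive-state genes (green) lie near the line of equal levels, and several keratin, junction and neural genes (blue) lie below the lower dotted line.

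The targeted genes were read first on every array. Hprt, on chromosome X, stood at 12.25 and 12.25 in the mutant and at 10.05 and 10.02 in the Hprt knockout, beside 12.09 and 12.08 in wild-type and 10.76 and 10.72 in the trap line. It was thus lowest in the line labelled as its knockout, with a difference of log2 2.21 ± 0.05 (SE, adjusted p = 7.27e-08), but remained far above the filter level there. Gtf2i, on chromosome 5, stood at 10.45 and 10.51 in the mutant and at 10.92 and 10.89 in the Hprt knockout, a difference of -0.42 ± 0.05 (adjusted p = 0.000348). Its second probe set above the filter level gave -0.70. Both wild-type arrays, at 10.10 and 10.14, and both trap arrays, at 10.11 and 10.07, lay below the mutant arrays. The mutant thus had less Gtf2i signal than the Hprt knockout and more than wild-type and the trap line. The position of the probes relative to exon 2 and to the mutation of Hprt was not analysed here, so neither label is checked by these signals.

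The labelled cell type and the feeder layer were examined through their defining markers, and here the lines parted. All 16 core pluripotency genes tested were above the filter level on the arrays of both lines. Their median level was 12.04 in the mutant and 12.06 in the Hprt knockout, against 11.65 in wild-type and 11.76 in the trap line. By mean level the lines were less alike, at 11.70 and 11.66 on the mutant arrays and 11.99 and 11.97 on the Hprt knockout arrays. The means were 11.41 and 11.41 in wild-type and 11.46 and 11.48 in the trap line. All 12 fibroblast markers passed and were at least 2-fold higher in the mutant. Their mean level was 11.23 and 11.24 on the mutant arrays, 6.87 and 6.79 on the Hprt knockout arrays, 11.65 and 11.68 in wild-type and 11.54 and 11.56 in the trap line. The Hprt knockout thus stood apart from all other lines in this signal, although its label gives it the same feeder layer. In RNA from mixed cultures, fewer fibroblasts and less RNA per fibroblast cannot be told apart. All groups below were measured on these same arrays, and the part of feeder RNA in each of them was not tested.

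**Figure D2:**
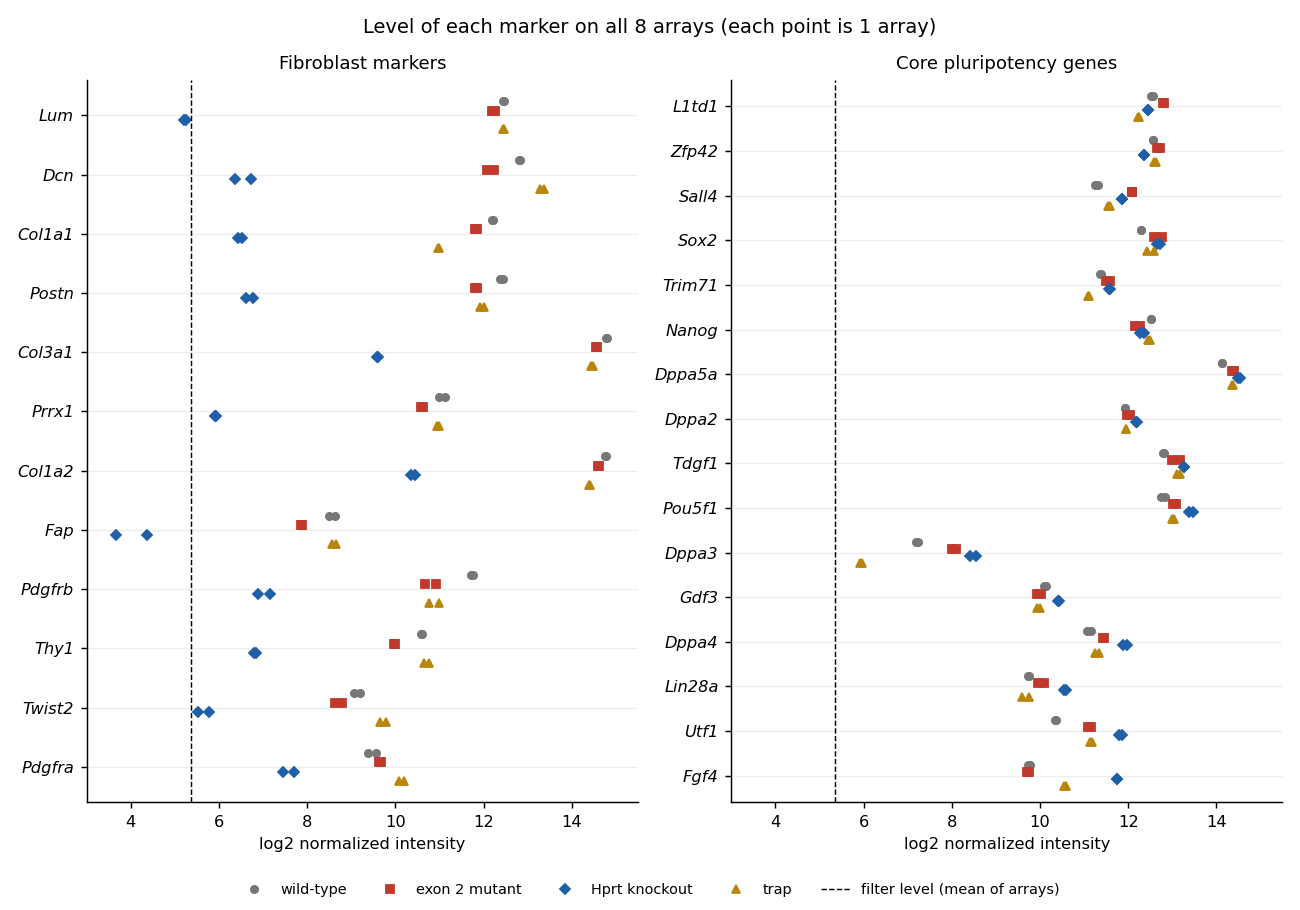
Log2 normalized intensity (horizontal axis) of the 12 fibroblast markers and the 16 core pluripotency genes on all 8 arrays, each point 1 array, ordered by the difference between exon 2 mutant and Hprt knockout, with the mean filter level of 5.35 dashed. For each fibroblast marker the Hprt knockout arrays lie left of those of the other 3 lines, whereas the pluripotency genes spread less between lines, most of all in Dppa3, Fgf4 and Utf1.

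Lum, which encodes the collagen-binding proteoglycan lumican, stood at 12.26 and 12.19 in the mutant and at 5.21 and 5.26 in the Hprt knockout, the latter below the filter level. The difference was log2 6.99 ± 0.05 (adjusted p = 4.35e-09), and wild-type (12.45 and 12.47) and trap (12.47 and 12.44) were close to the mutant. Dcn, for the related proteoglycan decorin, stood at 12.08 and 12.23 against 6.36 and 6.72 (5.62 ± 0.12, adjusted p = 6.45e-08). The arrays of the lines did not overlap in either gene, as was the case at 79.7% of all tested genes. The type I and type III collagen chains of connective tissue followed, with Col1a1 at 11.80 and 11.84 against 6.43 and 6.53 (5.34 ± 0.06). Col3a1 stood at 14.57 and 14.56 against 9.60 and 9.58 (4.97 ± 0.05), and Col1a2 at 14.60 and 14.61 against 10.35 and 10.45 (4.20 ± 0.05). Both of the latter remained far above the filter level in the Hprt knockout, so their signal was reduced there and not lost. Postn, for the matrix protein periostin, differed by 5.13, the mesenchymal homeobox gene Prrx1 by 4.68, the surface protease gene Fap by 3.87 and the surface glycoprotein gene Thy1 by 3.17. The receptor genes of platelet-derived growth factor differed by 3.77 (Pdgfrb) and 2.08 (Pdgfra), and the bHLH factor gene Twist2 by 3.05. The smallest of these 12 differences was that of Pdgfra, and Fap, like Lum, was below the filter level on both Hprt knockout arrays. A difference from a signal below the filter level, here and in all genes below, depends on the array background, so its size is not exact. Sizes also depend on the probe set: of 205 named genes 98 had another probe set above the filter level, and for 42 of them such a probe set gave a value over 1.5 times smaller or of opposite sign. Among these markers Pdgfra (0.78 and 0.84), Pdgfrb (1.81), Prrx1 (as little as 1.86) and Col1a2 (as little as 2.76) were such cases.

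Other matrix genes were higher in the mutant almost throughout. Of 13 further collagens 12 were higher and none lower, with a median of 4.32 relative to all genes. Col6a1 (5.32) and Col6a3 (5.22), chains of the beaded-filament type VI collagen, led them, followed by Col12a1 (4.99, and 2.12 on another probe set) and Col11a1 (4.69), and Col15a1 (0.38) did not pass. The Hprt knockout arrays disagreed on Col6a1, at 5.47 and 6.31, while the mutant arrays stood at 11.18 and 11.25. Of 16 proteoglycan and elastic fibre genes 15 were higher (median 2.37). Ogn, for osteoglycin, stood at 9.55 and 9.50 against 3.62 and 3.44 (5.99 ± 0.08, and 3.58 on another probe set), and Bgn (4.26), Aspn (4.20) and the TGF-beta-binding Ltbp2 (3.83) were next. Eln, the elastin gene of the Williams-Beuren interval, did not pass (0.06). All 18 matrix enzymes and inhibitors were higher (median 3.17). They were led by the collagenase gene Mmp13, at 11.10 and 10.87 against 4.32 and 3.70, both below the filter level (6.97 ± 0.19), and by Mmp3 (5.83), with the inhibitor gene Timp2 (4.54, and as little as 2.59 on another probe set) and Serpinf1 (4.39) behind them.

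Transcription factors and contractile genes of mesenchyme differed less than matrix genes. Of 15 mesenchymal transcription factor genes 13 were higher and none lower (median 2.04), among them the epithelial-mesenchymal regulator Snai2 (10.99 and 10.89 against 6.88 and 7.16, 3.92 ± 0.09). Foxc1 (3.68), Tbx18 (3.41) and Osr1 (3.14) followed, and Meox1 (0.02) and Foxf1 (-0.10) did not pass. Hox genes, which mark position along the body axis and are low in undifferentiated stem cells, were higher in 18 of 23 cases with none lower (median 0.75). Hoxc8 (2.81), Hoxa9 (2.56), Hoxb3 (2.33) and Hoxa10 (1.96) led, all 4 from below the filter level on both Hprt knockout arrays, and other probe sets of Hoxa9 and Hoxb3 gave 0.17 and 0.45. Of 16 contractile genes and targets of YAP or SRF 15 were higher (median 1.33), with Thbs1 (2.95), Tpm2 (2.72, and as little as 0.06 on another probe set), Myl9 (2.59) and Actg2 (2.54) at the top. Several of these had higher levels in wild-type than in the mutant: Thbs1 stood at 13.53 and 13.57 in wild-type, 11.29 and 11.37 in the mutant, 11.53 and 11.63 in the trap line and 8.48 and 8.27 in the Hprt knockout. The secreted YAP targets Ccn1 and Ccn2 differed by no more than 0.53 and 0.57.

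Chemokine and inflammation genes showed the largest differences of all groups, with a median of 4.70 relative to all genes. Of 20 tested, 19 were higher, all at least 2-fold, and 9 were below the filter level on both Hprt knockout arrays. Cxcl5, a chemokine that attracts neutrophils, stood at 12.87 and 12.74 in the mutant, 3.78 and 3.55 in the Hprt knockout, 13.15 and 13.14 in wild-type and 12.51 and 12.52 in the trap line. Its difference of log2 9.14 ± 0.08 (adjusted p = 5.34e-09) was the largest of any gene tested. Both Hprt knockout arrays were below the filter level, so this size and rank rest on a background-level signal. The monocyte-attracting Ccl2 stood at 12.52 and 12.56 against 5.92 and 5.95 (6.60 ± 0.05), and the acute phase gene Saa3 at 12.54 and 12.62 against 6.08 and 6.49 (6.29 ± 0.12). The cytokine gene Il6 stood at 9.63 and 9.54 against 3.60 and 3.22 (6.17 ± 0.11), with wild-type at 11.52 and 11.56. Cxcl1 (6.15, with 1.95 to 7.78 on other probe sets), Ccl7 (5.72) and the pentraxin gene Ptx3 (5.57) were close to these. Cxcl16 alone in the list was lower, at -0.47.

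Interferon-stimulated genes, whose products restrict viruses, were higher in all 26 cases, 25 of them at least 2-fold (median 3.01 relative to all genes). Ifit1, for an RNA-binding antiviral protein, stood at 10.66 and 10.70 in the mutant and at 3.49 and 3.63 in the Hprt knockout, below the filter level there (7.12 ± 0.07, adjusted p = 7.73e-09). Usp18, which removes ISG15 from proteins, stood at 11.27 and 11.31 against 4.08 and 4.53 (6.99 ± 0.13). Rtp4 (6.34, and 1.37 on another probe set) and Ifit3 (5.72) followed, and Irf1 differed least, by 0.79. Wild-type and trap levels of these genes were near those of the mutant: the list median level was 9.92 in wild-type, 9.57 in the mutant, 9.04 in the trap line and 5.85 in the Hprt knockout. Of 12 genes of class I antigen presentation 10 were higher and none lower (median 1.23). The proteasome subunit gene Psmb8 (3.18), the light chain gene B2m (2.57) and the heavy chain genes H2-D1 (2.32) and H2-K1 (2.25) led. Genes of class I molecules resemble each other closely, and other probe sets of H2-D1 and H2-K1 gave values down to 0.10 and 0.11, so their sizes are uncertain.

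Promoter sequences were searched for the elements known to drive these groups. The lists were written from general knowledge of such genes, with earlier results of these data known. A share above that of all genes was therefore favoured by the choice of members, whatever the arrays showed. Windows from 250 bases before to 50 bases after the annotated start came from RefSeq on build GRCm38.p6, and 17 of the 26 interferon genes had one. The core of the interferon-stimulated response element, read as GAAA, any 2 bases and GAAA again on either strand with overlapping matches counted, was found for 10 of these 17 (Ifit1, Ifit3, Stat2, Oas1a, Rsad2, Ifih1, Gbp2, Gbp3, Igtp and Bst2). Over all 27025 genes with a window the share was 3.99%. The kappaB element, GGGA, any base and TTTCC on either strand, was found for 4 of the 14 chemokine and inflammation genes with a window (Cxcl1, Cxcl2, Il6 and Csf1), against 0.466% of all genes. The 6 stretches below are shown because each belongs to a gene with a large difference. All are on the + strand, and capitals mark the matched element, in which GAAA reads TTTC where the match is on the other strand. They lie at chr19:34640765-34640833 (Ifit1), chr19:34583353-34583436 (Ifit3), chr3:142559979-142560034 (Gbp3), chr11:58199502-58199551 (Igtp), chr5:90891154-90891203 (Cxcl1) and chr5:30013050-30013099 (Il6).
Ifit1: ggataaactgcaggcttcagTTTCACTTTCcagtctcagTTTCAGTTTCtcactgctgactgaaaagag
Ifit3: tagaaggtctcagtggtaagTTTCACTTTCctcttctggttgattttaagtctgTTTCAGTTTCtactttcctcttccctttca
Gbp3: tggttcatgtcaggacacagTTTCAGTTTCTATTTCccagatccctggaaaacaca
Igtp: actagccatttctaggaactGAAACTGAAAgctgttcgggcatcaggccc
Cxcl1: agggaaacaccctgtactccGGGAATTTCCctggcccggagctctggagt
Il6: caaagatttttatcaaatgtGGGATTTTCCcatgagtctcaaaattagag
Ifit1 and Ifit3 each hold 2 copies of the interferon element, and those of Gbp3 overlap. These genes differed by log2 7.12 (Ifit1), 5.72 (Ifit3), 4.39 (Gbp3) and 3.10 (Igtp), and the genes with the kappaB element by 6.15 (Cxcl1) and 6.17 (Il6). The match of letters is a description of the window and shows no binding. The CArG box of SRF was found for 3 of 12 contractile genes (Cnn2, Myl9 and Vcl), against 1.81% of all genes. The core of the amino acid response element bound by ATF4, TGATG, any base and AA on either strand, was found for 6 of 19 amino acid stress genes, against 4.51%.

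Secreted factors and their receptors were higher in most cases. Of 20 growth factors and binding proteins 16 were higher and 2 lower (median 1.69). Fgf7, a fibroblast-made growth factor for epithelia, stood at 10.38 and 10.45 against 4.03 and 4.19 (6.31 ± 0.07), Igf2 differed by 4.41 (0.45 on another probe set) and the BMP inhibitor gene Grem1 by 3.41. Igfbp7 differed by 4.37 on its brightest probe set, but another probe set above the filter level gave -0.23. The lower genes were Igfbp2 (-0.37) and Igfbp5 (-0.24), and the latter lost its call under cyclic loess and ribosomal protein centring. Of 23 genes of TGF-beta ligands, receptors and targets 19 were higher and 3 lower (median 1.32), with the receptor genes Tgfbr2 (3.66) and Tgfbr3 (2.79), the matrix target Tgfbi (3.43) and the activin subunit gene Inhba (3.08) leading. Other probe sets of Tgfbr2 and Tgfbr3 gave 0.04 and 0.20. The BMP targets Id1 (-0.58) and Id2 (-1.36) and the coreceptor gene Eng (-0.44) were lower, whereas the related Id3 was higher (2.17).

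Over the 12 fibroblast-type lists, which hold 214 tested genes, 193 were higher, 6 lower and 15 did not pass. Of these genes 73.4% were at least 2-fold higher, beside 8.01% of all tested genes, and the median was 2.27 relative to all genes. All lists here were chosen with earlier results of these data known. List shares set beside those of all genes, here and below, are therefore no independent evidence. Outside these lists the interferon-inducible Ifi202b (6.38), the angiotensin receptor gene Agtr2 (5.97) and the oncostatin M receptor gene Osmr (5.86, and 0.91 on another probe set) differed most, all 3 from below the filter level. Of genes above it on both Hprt knockout arrays, the membrane protein gene Tm4sf1 did (5.24, with 1.62 and 2.62 on other probe sets). Among all 1107 genes that were at least 2-fold higher in the mutant, 798 were above the filter level on both Hprt knockout arrays and 250 below it on both. The latter had median levels of 4.63 in the Hprt knockout against 6.89 in the mutant, 7.36 in the trap line and 7.64 in wild-type. For 239 of these 250 the wild-type mean, and for 235 the trap mean, lay above the filter level. The comparisons of mutant, wild-type and trap line with the Hprt knockout share its arrays, so these levels are no separate evidence for any of them.

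**Figure D3:**
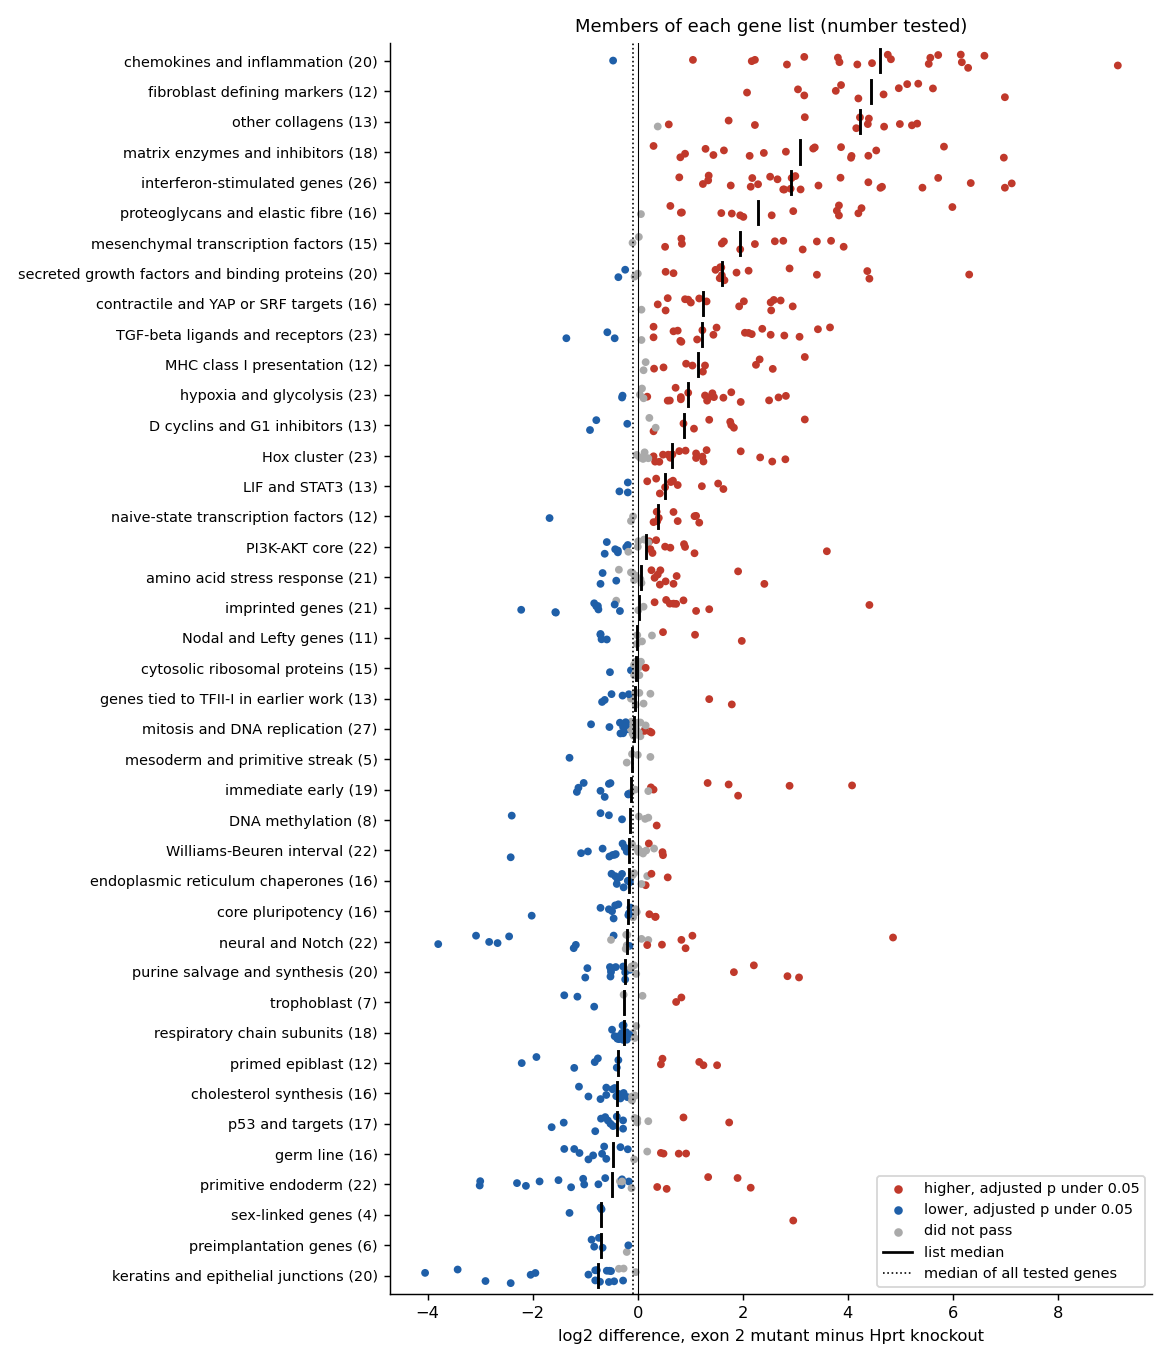
Log2 difference between exon 2 mutant and Hprt knockout (horizontal axis) for the tested members of each gene list, with the number tested in brackets, ordered by list median (black bars); the dotted line is the median of all tested genes, -0.09. Chemokine, fibroblast, collagen and interferon lists lie far to the right, pluripotency and cell division lists lie near the dotted line, and keratins and epithelial junctions hold members from -0.04 to -4.05 and none that passed as higher.

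The median of stem cell genes as a whole differed little beside these sizes, at -0.11 relative to all genes. In 9 stem cell lists with 114 tested genes, 35 were higher, 61 lower and 18 did not pass, beside 24.9% higher and 36.3% lower of all tested genes. At least 2-fold higher were 11 (9.65%, beside 8.01% of all tested genes), and 15 were at least 2-fold lower (13.16%, beside 3.11%). The keratin and epithelial junction list is among the 9 and gave 17 of the 61 lower genes and 6 of these 15. Among the core pluripotency genes 3 were higher and 10 lower (median -0.09). Pou5f1, for the factor OCT4, stood at 13.02 and 13.08 in the mutant and at 13.46 and 13.38 in the Hprt knockout (-0.37 ± 0.06, adjusted p = 0.00132). Sox2 (-0.02) and Nanog (-0.09) did not pass, and their arrays overlapped between the lines. Fgf4, the growth factor that OCT4 and SOX2 control in stem cells, made the exception in size. It stood at 9.76 and 9.70 in the mutant, 11.74 and 11.75 in the Hprt knockout, 9.78 and 9.74 in wild-type and 10.58 and 10.54 in the trap line, a difference of -2.02 ± 0.05 (adjusted p = 1.61e-07). The chromatin-bound factor gene Utf1 (-0.71), the RNA-binding Lin28a (-0.55) and Dppa4 (-0.49) were lower as well, with Gdf3 at -0.46 and Dppa3 at -0.43. L1td1 (0.34), Zfp42 (0.33) and Sall4 (0.22) were higher, though a second probe set of Sall4 gave -0.04. The calls of Dppa2 (-0.17), Tdgf1 (-0.18) and Dppa5a (-0.14) were lost under cyclic loess, and Trim71 (-0.04) did not pass.

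Naive-state and LIF pathway genes were mostly higher in the mutant. Of 12 naive-state transcription factor genes 9 were higher and 1 lower (median 0.47). Tcl1, a coactivator of AKT placed with them, stood at 10.57 and 10.64 against 9.48 and 9.38 (1.17 ± 0.06), and the nuclear receptor gene Nr5a2 (1.11) and Klf5 (1.08) were similar. Gbx2, a homeobox gene downstream of STAT3, was lower at -1.68. Of 13 LIF and STAT3 genes 10 were higher and 3 lower (median 0.61, and 0.18 with the median of a gene's probe sets), and 1 lower under cyclic loess or ribosomal protein centring. They were led by the shared receptor chain gene Il6st (1.63, with 0.34 to 3.16 on its other probe sets) and the kinase genes Jak2 (1.53) and Jak1 (1.22), with Stat3 at 0.76 (as little as 0.15 on another probe set). Levels of these receptor and kinase genes in wild-type and trap, such as 10.88 and 11.02 in wild-type for Il6st, lay near the mutant. Whether feeder RNA contributes to their differences was not tested.

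Primed epiblast genes, which stem cells gain as they leave the naive state, went both ways, with 5 of 12 higher and 7 lower (median -0.30, which turned positive with a filter at the 60th percentile or the median of a gene's probe sets). The POU factor gene Pou3f1 stood at 8.30 and 8.14 in the mutant and at 10.45 and 10.41 in the Hprt knockout (-2.21 ± 0.08). Wnt8a was at -1.93, but it was below the filter level on all arrays outside the Hprt knockout. It was thus tested through the Hprt knockout arrays alone, and its size depends on the array background. Cdh2, the cadherin of mesenchyme and neural cells, was higher (1.51), as was the Wnt effector gene Lef1 (1.25). Among 11 Nodal pathway genes 3 were higher and 4 lower (median 0.08), and 5 and 4 under cyclic loess. The Nodal inhibitor Lefty2 stood at 9.63 and 9.54 in the mutant against 7.61 and 7.59 (1.98 ± 0.06), while the related Lefty1 did not pass (-0.02). The protease gene Furin was higher (1.09), and the receptor gene Acvr2b and the Nodal cofactor gene Foxh1 were lower (both -0.71). Of 6 preimplantation genes none were higher and 5 lower (median -0.61), with Usp17la at -0.88, Calcoco2 at -0.83, Ddit4l at -0.74 and Pramel6 at -0.67.

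Of 8 genes of DNA methylation 1 was higher, 4 were lower and 3 did not pass, with 3 higher and 4 lower under cyclic loess (median -0.05, and -0.23 with the filter at the 60th percentile). Dnmt3a, an enzyme that places new methyl groups, stood at 9.41 and 9.40 in the mutant, 11.85 and 11.75 in the Hprt knockout, 9.06 and 9.13 in wild-type and 9.18 and 9.23 in the trap line (-2.40 ± 0.06, adjusted p = 1.19e-07). Its other probe sets gave -2.14 to -0.25. Dnmt3b (-0.71) and the cofactor gene Dnmt3l (-0.55) were lower too, and Uhrf1, which guides maintenance methylation, was higher (0.36). Of 16 germ line genes 4 were higher and 10 lower (median -0.38), with the homeobox gene Rhox6 at -1.40, the synaptonemal gene Sycp1 at -1.21, Taf7l at -1.11 and Tex19.1 at -0.94.

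Keratins and epithelial junction genes formed the clearest group on the side of the Hprt knockout. Of 20 tested, none were higher, 17 were lower and 3 did not pass (median -0.66), with 6 at least 2-fold lower beside 3.11% of all genes. Krt8 and Krt18 encode the keratin pair of simple epithelia. Krt8 stood at 6.39 and 5.86 in the mutant, 10.17 and 10.18 in the Hprt knockout, 7.75 and 7.89 in wild-type and 7.33 and 7.35 in the trap line (-4.05 ± 0.15, adjusted p = 1.13e-06), the largest fall of any gene. Krt18 stood at 5.89 and 5.82 against 9.27 and 9.30 (-3.43 ± 0.09), and the tight junction genes Cldn6 (-2.90) and Cldn4 (-2.42) followed. Median levels of the group were 6.96 in the mutant, 9.03 in the Hprt knockout, 6.90 in wild-type and 7.04 in the trap line. The Hprt knockout therefore stood apart from the 3 other lines, whose medians lay close together. Epcam (-0.72) and the epithelial cadherin gene Cdh1 (-0.28), both expressed in stem cells, were lower by less.

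Neurogenic and Notch genes held some of the largest differences of the same sign, within a list that went both ways. Of 22 tested, 6 were higher and 9 lower (median -0.12), shares near the 24.9% and 36.3% of all tested genes. Of the lower genes 7 were at least 2-fold lower, beside 3.11% of all tested genes. Neurod1, a bHLH factor of neuronal and endocrine differentiation, stood at 7.27 and 7.14 in the mutant, 11.01 on the higher array of the Hprt knockout, 5.78 and 5.66 in wild-type and 8.12 and 8.17 in the trap line (-3.80 ± 0.07, adjusted p = 3.40e-08). The zinc finger gene Insm1, often found with it, stood at 7.46 and 7.47 in the Hprt knockout and below the filter level in all other lines (-3.08 ± 0.10). Insm1 was thus tested through the Hprt knockout arrays alone, and its size depends on the array background. Dll1, a ligand of Notch, stood at 7.79 and 7.66 against 10.57 and 10.54 (-2.83 ± 0.16), with Hes6 at -2.67. Zic1 was the exception, at 9.61 and 9.62 in the mutant against 4.99 and 4.52 in the Hprt knockout (4.86 ± 0.14). Its levels were also high in wild-type (9.77 and 9.93) and trap (8.75 and 8.69), and the part of feeder RNA in them was not tested.

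Primitive endoderm genes were lower in 14 of 22 cases and higher in 5 (median -0.39, which went to -0.95 with the filter at the 60th percentile). The proteoglycan gene Srgn stood at 7.55 and 7.46 in the mutant and at 10.56 and 10.47 in the Hprt knockout (-3.01 ± 0.08), the endocytic receptor gene Cubn was at -3.00 and the laminin gene Lama1 at -2.30. Srgn was also high in wild-type, at 9.63 and 9.81, so for this gene the mutant and the trap line (8.15 and 8.23) were the low ones. Lama1 had the same order of lines, with means of 9.60 in the Hprt knockout, 8.79 in wild-type, 7.60 in the trap line and 7.29 in the mutant. So did Cubn, at 8.73, 7.13, 6.08 and 5.73. Higher were the basement membrane genes Nid1 (2.15), Sparc (1.90), Col4a2 (1.34), Col4a1 (0.55) and Lamb1 (0.37). Fibroblasts also make these, but whether feeder RNA contributes to their differences was not tested. Of 7 trophoblast genes 2 were higher and 3 lower (median -0.18, and -0.75 with that filter), with Tfap2c at -1.15 and Ascl2 at -0.83 beside Rhox6, and Tfap2a at 0.83 (as little as 0.13 on another probe set). Of 5 mesoderm and primitive streak genes only Foxa2 passed, at -1.30, with 1 higher as well under cyclic loess or ribosomal protein centring, and 6 more, among them Mixl1 and Gsc, were below the filter level. Over these 4 lineage lists, 19 of 56 genes were at least 2-fold lower (33.9%, beside 3.11% of all tested genes). Only 5 were at least 2-fold higher (8.93%), a share near the 8.01% of all tested genes.

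Genes that fell most outside the lists were of mixed function. Cbr3, a carbonyl reductase gene, stood at 9.05 and 9.13 against 12.26 and 12.33 (-3.20 ± 0.06), the trypsin inhibitor gene Spink1 at 6.63 and 6.65 against 9.80 and 9.82 (-3.17 ± 0.05), and the FGF-binding Fgfbp1 at -2.97. Pkhd1 (-3.06), the protocadherin gene Pcdh8 (-2.96), the membrane protease gene Prss8 (-2.79), Tmem54 (-2.61) and the zinc finger gene Wt1 (-2.54) were below the filter level on both mutant arrays, so these sizes depend on the array background. Of these, Pkhd1, Pcdh8, Prss8 and Tmem54 were below it on all arrays outside the Hprt knockout. They were thus tested through the Hprt knockout arrays alone. Of the 430 genes at least 2-fold lower, 330 were above the filter level on both mutant arrays, with median levels of 6.97 in the mutant, 8.44 in the Hprt knockout, 7.04 in wild-type and 7.33 in the trap line. A further 80 were below it on both mutant arrays. For only 10 of these 80 the wild-type mean, and for 21 the trap mean, lay above the filter level.

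**Figure D4:**
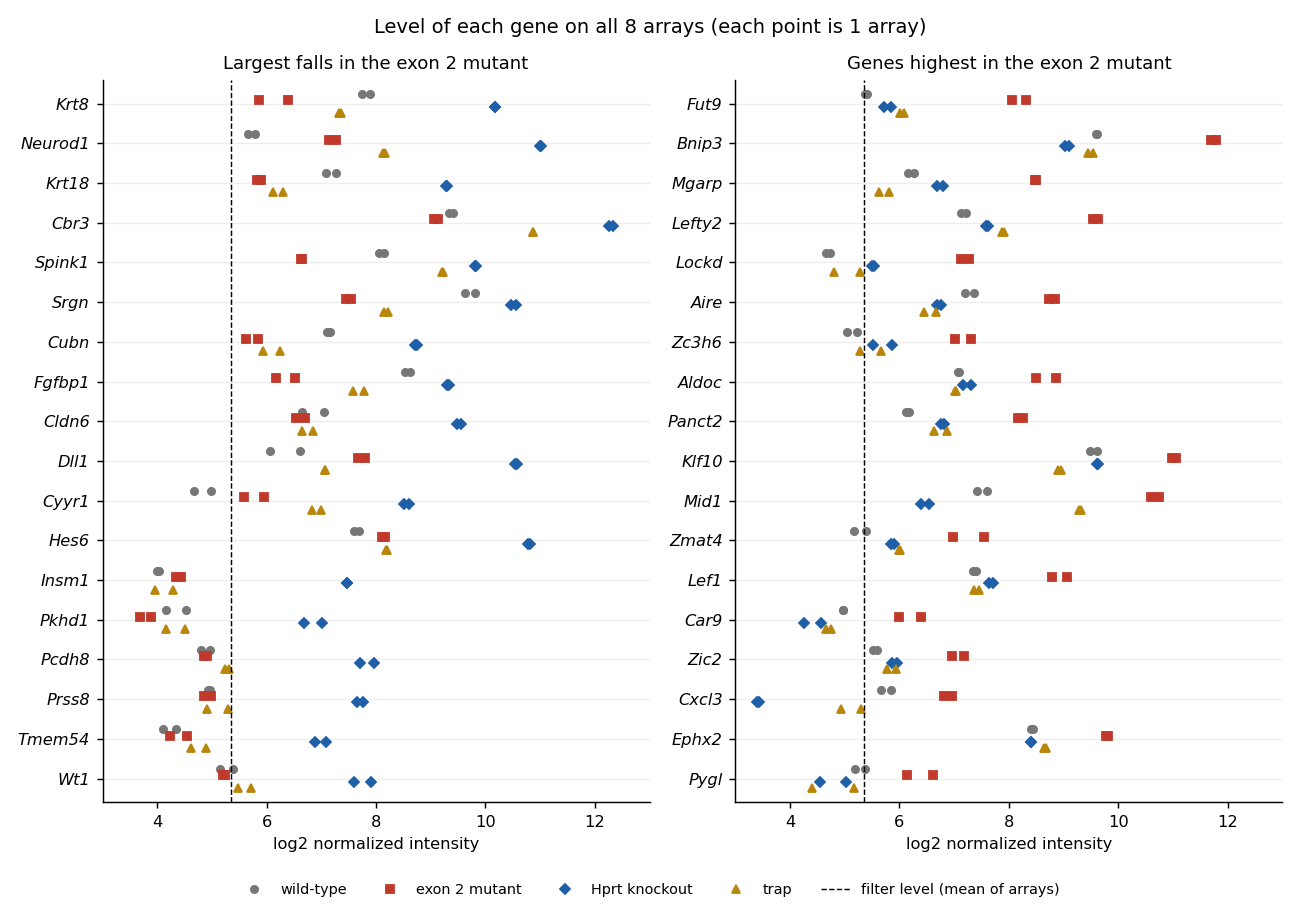
Log2 normalized intensity (horizontal axis) on all 8 arrays, each point 1 array, of the 18 largest named falls in the exon 2 mutant (left) and of 18 genes whose level was highest in the exon 2 mutant (right), with the mean filter level of 5.35 dashed. On the left the Hprt knockout arrays are the highest of all lines for each gene, and on the right the exon 2 mutant arrays are.

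Hypoxia and glycolysis genes were higher in 18 of 23 cases and lower in 2 (median 1.05), and here the mutant rather than the Hprt knockout was the line apart. The list median level was 11.34 in the mutant, 10.06 in the Hprt knockout, 10.27 in wild-type and 10.29 in the trap line. Bnip3, a mitophagy receptor gene induced by HIF1, stood at 11.70 and 11.79 in the mutant against 9.03 and 9.11 (2.68 ± 0.06, adjusted p = 9.65e-08), with wild-type at 9.62 and 9.60 and trap at 9.53 and 9.44. The glycolytic regulator gene Pfkfb3 (2.50) and Ndrg1 (1.96, with 0.18 to 1.61 on other probe sets) were also highest in the mutant. Adm, for the peptide adrenomedullin, had the largest difference (2.82) but stood higher in wild-type, at 10.27 and 10.27, than in the mutant, at 9.40 and 9.41. Slc2a1 (-0.30) and Ddit4 (-0.29) were lower.

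Growth control genes were mixed. Of 27 mitosis and DNA replication genes 3 were higher, 9 lower and 15 did not pass, but under cyclic loess 7 were higher and 6 lower, so the balance of this list has no settled direction. The median, 0.01, was negative with cyclic loess, with the filter at the 60th percentile and without the second Hprt knockout array. Aurkb was at -0.89, Ccne1 at -0.54, Ccna2 at -0.34 (-0.05 on another probe set) and Ccnb2 at -0.33. D-type cyclins and G1 inhibitors were higher in 8 of 13 cases and lower in 3 (median 0.96). The cyclin gene Ccnd2 stood at 12.16 and 12.11 against 8.91 and 9.01 (3.18 ± 0.05), and the inhibitor genes Cdkn2b (1.83) and Cdkn2a (1.78) and the kinase gene Cdk6 (1.76) were higher as well. All 4 had wild-type and trap levels at or above those of the mutant. Of 17 p53 genes 2 were higher and 11 lower (median -0.31), with Fas (1.74) and the cell cycle inhibitor Cdkn1a (0.87) up and Perp (-1.64) and Btg2 (-1.41) down. Of 22 PI3K and AKT pathway genes 10 were higher and 7 lower (median 0.25). The insulin receptor substrate gene Irs1 stood at 10.36 and 10.40 against 6.78 and 6.78 (3.60 ± 0.05), and Pik3r1 (1.08), Rictor (0.90) and Akt1 (0.88) followed. The value of Akt1 rests on its brightest probe set, and another gave -0.23. Other probe sets of Pik3r1 and Rictor gave as little as 0.01 and 0.06. Of 19 immediate early genes 7 were higher and 9 lower (median -0.04, which turned positive without the second Hprt knockout array). Ier3 (2.89), Fosl1 (1.91, and 0.85 on another probe set) and Jun (1.73) were higher. Fosl2 stood at 4.08, but a second probe set gave -0.42.

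Stress and metabolic lists differed by less. Amino acid stress genes were higher in 10 of 21 cases and lower in 3 (median 0.16), with Nupr1 at 2.41, the lipoprotein receptor gene Vldlr at 1.91, Aldh18a1 at 0.74 and Cth at -0.71. Endoplasmic reticulum chaperones were higher in 3 of 16 cases and lower in 9 (median -0.08), and in 4 and 5 under cyclic loess, with Herpud1 at 0.57, the chaperone gene Hspa5 at -0.50, Manf at -0.43 and Sdf2l1 at -0.40. Cholesterol synthesis genes were lower in 12 of 16 cases and higher in none (median -0.30), led by Idi1 (-1.12), Pmvk (-0.94), Hmgcs1 (-0.71) and Mvd (-0.60). Respiratory chain subunits were lower in 14 of 18 cases and higher in none (median -0.18), at no more than -0.49 in Uqcrfs1, with Ndufs1 at -0.44, Ndufb5 at -0.39 and Cyc1 at -0.37. Ribosomal protein genes moved least. Of 15 genes 1 was higher and 2 lower, and 2 and 1 under cyclic loess (median 0.05, which turned negative under cyclic loess), with Rpl14 at -0.53, and the calls of Rps18 (0.15) and Rplp0 (-0.13) were lost in other fits.

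Genes tied to the mutated loci were followed apart. Of 20 purine genes 4 were higher and 12 lower (median -0.15). Beside Hprt itself the higher ones were the purine breakdown enzymes Gda (8.35 and 8.29 against 5.17 and 5.34, 3.07 ± 0.07, with 0.64 to 3.35 on other probe sets) and Xdh (2.85), neither above the filter level on the Hprt knockout arrays, and Nt5e (1.83), of which another probe set gave -0.06. The 12 lower genes were at -0.15 to -0.53, except for larger falls in the synthesis enzyme gene Gart (-0.96) and the adenosine kinase gene Adk. In the Williams-Beuren interval, which is deleted in Williams-Beuren syndrome in humans and contains Gtf2i, 3 of 22 genes were higher and 11 lower (median -0.07), and 6 and 8 under cyclic loess. The claudin gene Cldn4 was at -2.42, the methyltransferase gene Bud23 at -1.08, Mlxipl at -0.95 and Abhd11 at -0.67, while the TFII-I relatives Gtf2ird1 (0.10) and Gtf2ird2 (-0.01) did not pass. Of 13 genes linked to TFII-I by earlier studies 2 were higher and 5 lower, but 4 and 3 under cyclic loess and 4 and 4 under ribosomal protein centring, so neither the counts nor the median (0.04, of changing sign between settings) give this list a direction. The calpain gene Capn2 (1.79) and the cyclin gene Ccnd1 (1.36) were higher and Usf1 (-0.68) and Fos (-0.63) lower. Imprinted genes were higher in 9 of 21 cases and lower in 9 (median 0.10, which turned negative with the median of a gene's probe sets and, to -0.21, without the second exon 2 mutant array). Igf2 was far higher and Nnat (-2.23), Peg10 (-1.57) and Phlda2 (-1.56) were lower. Peg10 was below the filter level on all arrays outside the Hprt knockout and was tested through those alone. Nnat was below it on 1 mutant array, so the sizes of Peg10 and Nnat depend on the array background.

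The X inactivation transcript Xist stood at 11.85 and 11.78 in the mutant, 8.82 and 8.89 in the Hprt knockout, 11.91 and 11.82 in wild-type and 10.57 and 10.64 in the trap line (2.96 ± 0.06, adjusted p = 6.29e-08). The Y-linked genes were above the filter level on the arrays of both lines and lower in the mutant, Uty at -1.30, Kdm5d at -0.71 and Eif2s3y at -0.69. Xist was thus lowest and the Y-linked genes highest in the line with the lowest fibroblast markers. Whether feeder RNA contributes to this was not tested.

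Of the markers of other cells 19 were tested and 15 more on the array were below the filter level. Of 11 macrophage and blood markers 5, including Ptprc, Tyrobp and Itgam, were below the filter level, and of the 6 tested 3 were higher and 1 lower (median 0.33, and 1.04 with the filter at the 60th percentile). The lysozyme gene Lyz2 stood at 8.25 and 8.10 against 5.74 and 5.70 (2.46 ± 0.07), Cd14 at 0.96 and Adgre1 at 0.32. Cd68 stood at 7.68 and 7.68 against 8.67 and 8.68 (-0.99), well above the filter level in both lines. Of 5 endothelial markers tested 2 were lower, Tek (7.26 and 7.13 against 8.78 and 8.75, -1.56) and Cldn5 (-0.71, a call lost under cyclic loess), and Cdh5, Tie1 and Emcn were below the filter level. Of 7 muscle, cartilage and fat markers tested 3 were lower, Des (6.96 and 7.10 against 8.32 and 7.97, -1.11), Myh3 (-0.97) and Acan (-0.72), with 3 others higher under cyclic loess, and Myog, Myod1, Adipoq and Pparg were below the filter level. The keratinocyte marker Krt5 was at -0.29 and lost its call under cyclic loess, and Krt14, Krt15 and Trp63 were below the filter level.

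To see which line set each difference, genes were counted whose mean level in a line was at least log2 1 above or below that of each of the 3 other lines. This grouping was chosen after values were seen and has no test. The Hprt knockout was lowest at 943 genes, 150 of them from the fibroblast-type lists, and highest at 234, of which 0 were from those lists, 11 from stem cell lists and 12 from lineage lists. The fibroblast-type, stem cell and lineage lists held 214, 114 and 56 of the 13819 tested genes. The exon 2 mutant was highest at only 26 genes and lowest at 11. By this count few of the large differences between both lines came with the mutant as the line apart. With so few genes, the absence of fibroblast-type list members among the 26 says little. The chemokine gene Cxcl3, outside those lists, was among the 26, at 6.97 and 6.82 in the mutant against 3.40 and 3.43 in the Hprt knockout (3.48). Both of its Hprt knockout arrays were below the filter level, so this size depends on the array background.

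**Figure D5:**
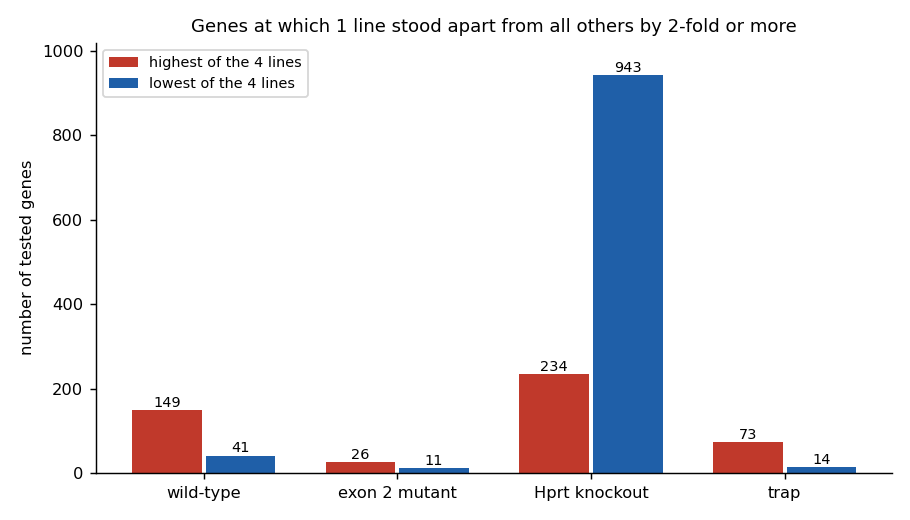
Number of tested genes (vertical axis) at which the mean level of a line lay at least log2 1 above (red) or below (blue) each of the other 3 lines, from 2 arrays a line. The Hprt knockout has 943 genes at which it is lowest and 234 at which it is highest, against 26 highest and 11 lowest for the exon 2 mutant.

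The genes at which the mutant was highest are named here after their values were seen. Beside Bnip3, the hypoxia and glycolysis list contributed the carbonic anhydrase gene Car9 (6.39 and 5.99 in the mutant against 4.56 and 4.26 in the Hprt knockout, 1.78) and the glycolytic Aldoc (1.45). The mitochondrial protein gene Mgarp (1.74) and the glycogen phosphorylase gene Pygl (1.59) were outside the list. Car9 was below the filter level on all arrays of the other lines and was tested through the mutant arrays alone. Pygl was below it on both Hprt knockout arrays, so the sizes of Car9 and Pygl depend on the array background. Mid1, for a microtubule-bound ubiquitin ligase, stood at 10.74 and 10.59 in the mutant, 6.40 and 6.55 in the Hprt knockout, 7.42 and 7.59 in wild-type and 9.27 and 9.32 in the trap line, a difference of 4.20. Its level differed in all 4 lines by more than between arrays of a line. Fut9, the fucosyltransferase gene behind the stem cell surface antigen SSEA-1, stood at 8.31 and 8.06 against 5.85 and 5.72 (2.40), and Aire, a regulator of self-antigen expression, at 8.74 and 8.85 against 6.68 and 6.75 (2.08). Klf10, a transcription factor gene induced by TGF-beta (1.40), Ephx2 (1.39) and the epiblast genes Lefty2, Lef1 and Zic2 (1.17) belonged to the same set.

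The 11 genes at which the mutant was lowest were of mixed function. Nr4a1, an immediate early nuclear receptor gene, stood at 8.04 and 7.98 in the mutant, 9.22 and 9.12 in the Hprt knockout, 10.40 and 10.58 in wild-type and 9.06 and 8.99 in the trap line (-1.16). Spry4, a feedback inhibitor of FGF signalling, was at -1.13 and Id2 at -1.36, and the stem cell zinc finger gene Zfp296 had a mean of 7.94 against 9.13 (-1.19). Krt8, Spink1, Fgfbp1 and the transglutaminase gene Tgm1 (-1.45) were lowest in the mutant and highest in the Hprt knockout, so both lines were at the ends of the range in these genes. For Tgm1 the Hprt knockout mean of 8.42 was close to the 8.27 of wild-type. Tfec (-1.46), Rab26os (-1.49) and the heparan sulfate enzyme gene Hs3st1 (-1.31) completed the set. Tfec was below the filter level on both mutant arrays, so its size depends on the array background.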

How the data were processed

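Total RNA of 8 samples was hybridised to Affymetrix mouse arrays, per the labels' protocols. The authors deposited log2 values, normalized intensities for each of 45101 probe sets. They were made with RMA, as the submitters' processing notes state, with its version not given in the sources here. RMA forces all arrays to a common distribution, so a shift of total RNA is not visible, and it compresses folds at dim signals. Array medians lay at log2 5.96 to 6.01, and no detection calls were used.

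After leaving out 64 controls, 34945 probe sets had 1 symbol, 932 several and 9160 none, and only the first were named; 34741 of them were found in the gene table through their Entrez ID, with 0 symbols changed. Of several probe sets of a gene, the brightest on average over the 8 arrays stood for it. The exon 2 mutant was compared with the Hprt knockout by limma 3.58.1 (lmFit and eBayes, R 4.3.3) in a model of 4 group means over all 8 arrays, which had 4 residual degrees of freedom, or 6.86 with moderation. Two-sided p-values were adjusted over the 13819 genes by Benjamini-Hochberg, and the threshold was 0.05. No exact permutation test was used, since 2 arrays against 2 allow no p under 0.333. The pipeline was tested on simulated data.

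The members and the 45 gene lists, written from general knowledge, were chosen with earlier results of these data known, so no list is independent evidence. Lists are described by counts and medians with no set test. Genes were named by rule: Gtf2i, Hprt, all fibroblast and core pluripotency markers, up to 4 passing members of each list by size, members whose opposite direction or lack of a call a sentence needs, the 12 largest rises with the Hprt knockout below and the 12 above the filter level, and the 12 and 6 largest falls with the mutant above and below it. Genes named by their level across lines, as the promoter matches, were chosen after values were seen.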

Additional observations from a re-analysis of the deposited data

How the results depend on the processing

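The alternatives were other scalings (cyclic loess, centring on ribosomal protein genes), no filter or one at the 60th percentile, the median of a gene's probe sets, eBayes with trend, only the 4 compared arrays, a test against log2 1 (treat), and leaving out each array. Outside treat, the counts over all genes stayed within 1.5 times, but those of single lists did not always, as given beside them. Relative medians moved by more than the spread between replicates in 24 of the 45 lists in at least 1 setting: in 16 with the median of probe sets, in 11 with the filter at the 60th percentile, in 2 and 3 without the first or second Hprt knockout array and in 1 without the second mutant array. With treat 941 genes passed, 778 higher and 163 lower, stem cell list members went to 4 higher and 11 lower, and Gtf2i (-0.42) no longer passed. Leaving out an array gave 7347 to 7826 genes, 3044 to 3251 higher and 4235 to 4575 lower, with 1076 to 1139 and 412 to 471 of them at least 2-fold. Fibroblast-type members that were higher then numbered 189 to 193, stem cell members that were lower 53 to 57 and higher 35, Gtf2i ran from -0.46 to -0.39 and Hprt from 2.20 to 2.23. With the median of probe sets Igfbp7 turned to -0.23, Rps18 to -0.094 and Akt1 to -0.0047. On the given strand alone 4 interferon genes and 1 amino acid stress gene held their element. The cause was not tested, except that treat asks for a larger difference. Of 203 named genes 6 lost their call under cyclic loess and 78 under treat. A replicate block left 8067 genes, but the replicate numbers share no stated culture and do not pair the arrays: the correlation of replicate deviations was 0.17 between both lines and -0.28 to 0.14 between the others.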
